A study of Oryza sativa with 18 samples.

Results

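The Saltol interval is the stretch of rice chromosome 1 around a locus known for salt tolerance, taken here as positions 10500001 to 13000000 in the coordinates of the deposited peak lists. R-loop peaks of the 17 libraries other than the RNase H control were merged wherever they shared at least 1 bp, and a merged region belonged to the interval if its midpoint lay inside those limits. The interval held 625 of the 89277 regions of the genome. The other 16 tiles of 2.5 Mb on the same chromosome, laid end to end with the interval, held 10576 (482 to 738 each) and served as its background.

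An R-loop is a hybrid of RNA and its DNA template with the other DNA strand displaced. R-loops form during transcription, and in plants they are found at promoters and in gene bodies. Saltol is a quantitative trait locus for seedling salt tolerance, known for keeping the balance of sodium and potassium in the shoot, and the gene SKC1 mapped there encodes a sodium transporter that takes sodium out of the xylem sap. No gene was placed in the interval and no sequence is printed, because the annotation at hand is of another genome assembly than the peak lists.

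All 18 libraries came from seedlings labelled wild type, with no other allele named. In the assay, ISRH-seq, the RNA strand of each hybrid in the purified DNA is replaced in the tube by labelled DNA, which is then pulled down and sequenced. The series has 13 libraries that differ in input DNA, from 8 µg through 5 µg, 3 µg, 1 µg, 500 ng and 250 ng (2 libraries per amount) to 100 ng (1 library). It also has 2 libraries titled salt (150 mM NaCl), 2 control libraries titled CK(salt) and 1 titled RNaseH, whose input amounts are not given in the sources used here. The treatment label reads 3 days of salt for the salt and the CK(salt) libraries alike, so the titles told them apart, and the 1 µg amount too comes from the titles. Peak lists hold no expression, so the tissue was not checked against marker genes. The labels name no separate plants or cultures for replicates, so any p-value below rests on a spread that may be purely technical.

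The lists carry no read counts. Background coverage, in fragments per position as solved from the peak caller's fold and p-value, served as depth. It was 11.4 and 12.74 at 8 µg, between 4.82 and 7.84 from 5 µg down to 250 ng, and 0.881 at 100 ng. Salt replicates 1 and 2 had 6.74 and 3.88, and CK(salt) replicates 1 and 2 had 8.60 and 4.30.

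R-loop regions were spread along the whole interval. Their median width was 551 bp, against 553 bp over the genome, and together they covered 16.7% of the interval, where the other tiles had 12.4 to 20.5%. The 25 windows of 100 kb held between 15 and 39 regions (mean 25, SD over windows 5.90), compared with 2 to 42 over the windows of all 17 tiles. The most crowded window ran from 11700001 to 11800000 with 39 regions, and the next, from 10900001 to 11000000, had 38. The emptiest, from 10700001 to 10800000, had 15.

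Neighbouring regions lay close to each other. The median gap was 2146 bp, within the 1845 to 2216.5 bp of the medians of the other tiles, and 36 of the 624 gaps were longer than 10 kb. The longest stretch without a peak in any of the 17 libraries ran for 34.7 kb, from 11996919 to 12031660. It was followed by 30.8 kb from 12947476 to 12978279 and 30.0 kb from 12443886 to 12473901. The longest gaps of the other tiles ranged from 18.9 to 95.1 kb, so the interval held no gap outside their range.

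**Figure D1:**
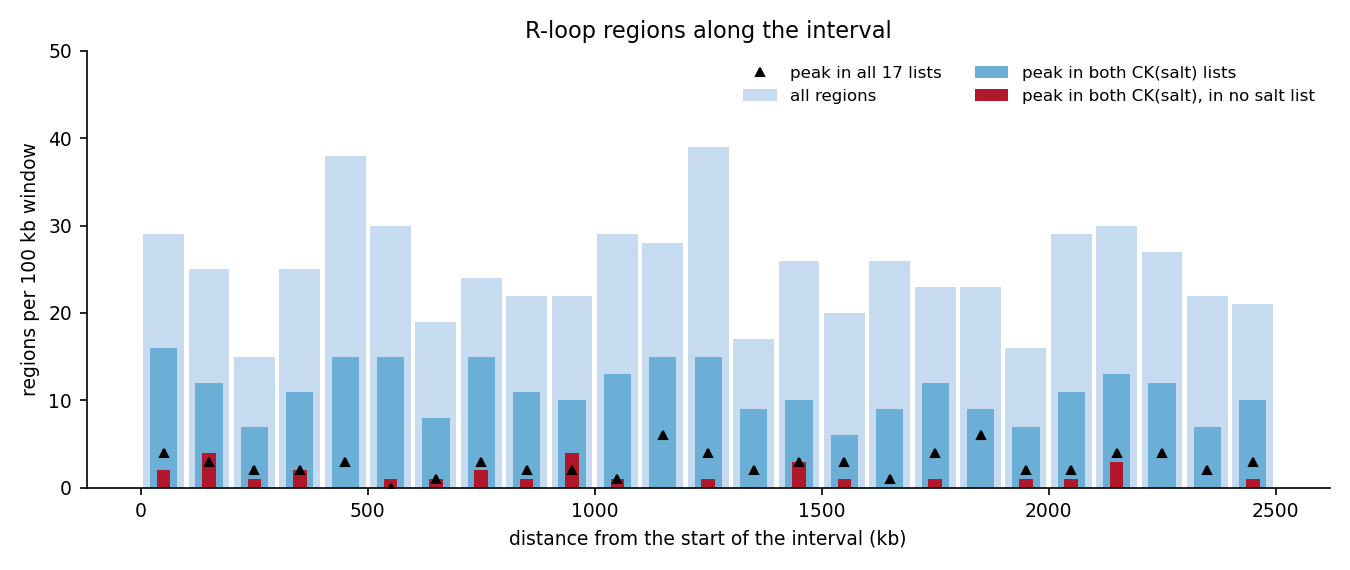
Regions per 100 kb window (y axis) by distance from the start of the interval in kb (x axis). Bars show all 625 regions, those with a peak in both CK(salt) lists and those of them with a peak in no salt list, and triangles show regions with a peak in all 17 lists. The windows hold 15 to 39 regions, and those lost under salt are at most 4 per window.

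Some regions were called in every library and many in few. Of the 625, 69 (11.04%) had a peak in all 17 lists and 77 (12.3%) in 1 list only. The genome had 10.6% and 14.2%, and the other tiles 6.06 to 12.5% and 11.7 to 17.8%, so the interval lay within their range for both. Regions held by more lists were also longer when merged. The median width was 253 bp for regions of 1 list, 373 bp for 2 to 5 lists, 478 bp for 6 to 11, 809.5 bp for 12 to 16 and 995 bp for all 17. A region merged from more lists can only gain width, so the merging itself adds to this order. Of the single-list regions, 17 came from 8 µg replicate 2, 12 from 3 µg replicate 2 and 10 from 250 ng replicate 1, and 0 from 100 ng and from 1 µg replicate 2.

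**Figure D2:**
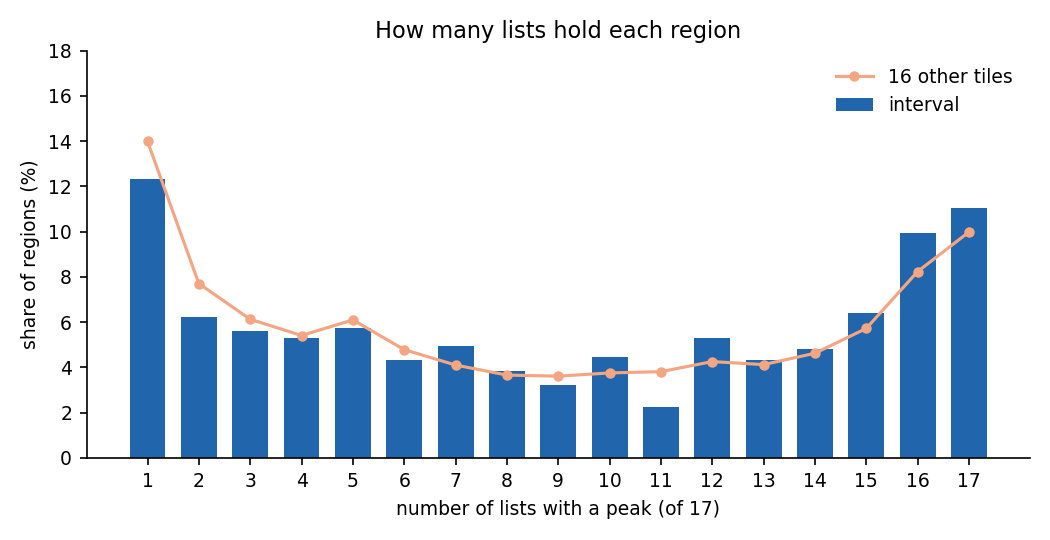
Share of regions in percent (y axis) by the number of lists, of 17, that hold a peak there (x axis). Bars are the 625 regions of the interval and the line is the 16 other tiles. Both are highest at the ends, with 12.3% of the interval's regions in 1 list and 11.04% in all 17.

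The strongest region common to all 17 lists lay from 12351674 to 12353355. Strength is ranked here by the percentile of the peak's score within its own list, and the fold quoted is the authors' deposited value for the peak. A fold is relative to its own library's background, so folds of different libraries are set side by side as values. This region had a median percentile of 99.1. Its highest fold was 12.4 and 10.48 in CK(salt) replicates 1 and 2, 8.58 and 9.62 in the salt libraries, and 4.91, 13.02 and 18.1 as the lowest, median and highest of the 13 input libraries. Its peaks covered 1070 and 1048 bp in CK(salt), 861 and 394 bp in salt, and 305, 1162 and 1534 bp (lowest, median, highest) in the input libraries. Both salt libraries thus lay below both CK(salt) libraries in covered length.

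The region from 10829339 to 10830747 came second, with a median percentile of 98.7 and 549, 486, 345 and 350 bp in CK(salt) replicates 1 and 2 and salt replicates 1 and 2. The third, from 12713522 to 12714346 (97.9), covered 706 and 545 bp in CK(salt) and 466 and 698 bp in salt, so its groups overlapped. The next pair lay from 12924227 to 12925060 (97.1) and from 12057114 to 12058407 (96.9). The first of this pair was shorter in both salt libraries (482 and 440 bp) than in CK(salt) (742 and 512 bp), and the second overlapped between groups, with 871 and 1140 bp in salt and 1125 and 1078 bp in CK(salt).

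The widest merged region of the interval, 2777 bp from 11453575 to 11456351, also had a peak in all 17 lists. Most lists held 2 or 3 separate peaks in it, such as 3 and 2 in 8 µg replicates 1 and 2, while salt replicate 1 held 1. The region's peaks covered 1646 and 1110 bp in CK(salt) and 684 and 817 bp in salt, without overlap between the groups. In the input libraries they covered 410, 1533 and 2151 bp (lowest, median, highest). The next in width, 2758 bp from 10871211 to 10873968, had a peak in 10 input lists and in none of the 4 salt and CK(salt) lists. It was called in the 6 libraries of 1 µg, 500 ng and 250 ng, in both at 8 µg, in replicate 2 at 5 and 3 µg and not at 100 ng. The next were 2576 bp from 12493079, 2493 bp from 10664892 and 2371 bp from 12104775, with a peak in 17, 15 and 16 lists.

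The RNaseH library, in which RNase H should remove hybrids, had 123 peaks in the genome and 20 on chromosome 1, of which 0 lay in the interval. A count of 0 of 123 allows a share of up to 2.44%. The 8 µg lists had 0.711% of their peaks there, which would come to 0.874 of 123 peaks, so a lower share than theirs was not detectable with this list. The nearest RNaseH peaks lay 2582 kb before and 5684 kb after the interval. The interval's strongest regions therefore do not coincide with peaks of that library.

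Libraries from more DNA held more peaks in the interval. The 8 µg libraries, replicate 1 first, had 503 and 467 peaks there. The 5 µg libraries had 368 and 427, those of 3 µg 369 and 435, and those of 1 µg 420 and 368. The 500 ng libraries had 329 and 344, those of 250 ng 328 and 331, and the 100 ng library 113. The 8 µg libraries lay above all others and the 100 ng library below, whereas the groups from 5 to 1 µg overlapped. The density was 194 ± 10.2 peaks per Mb at 8 µg and 131.8 ± 0.849 at 250 ng (SD, n = 2 each), and 45.2 at 100 ng.

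On log2 scales the peak number in the interval rose with the amount (Pearson's r = 0.752, permutation p = 5.0e-05, adjusted 0.00025; Spearman's rho = 0.904, p = 6.0e-05). All 5 relations to input were tested over the 13 libraries with two-sided permutation tests and Benjamini-Hochberg adjustment, recovery over 11 libraries. Background coverage rose with input too (r = 0.733, permutation p = 0.00064; rho = 0.77, p = 0.00318). At constant background coverage r for peak number was 0.248 (permutation p = 0.413), so the call was lost there. Peak names carry library codes whose runs of consecutive numbers may mark preparation batches. Within the runs that hold more than 1 amount (8 libraries) r was 0.861 (exact permutation p = 0.0556, adjusted p = 0.139). These runs allow 72 orders, so the smallest p is 0.0139, or 0.0694 after adjustment if a single relation reaches it, and a missed threshold there says little. Leaving out the 100 ng library together with 8 µg replicate 1 or 2, the amounts farthest from the median, gave 0.802 or 0.798 (adjusted permutation p = 0.00837 and 0.0125).

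**Figure D3:**
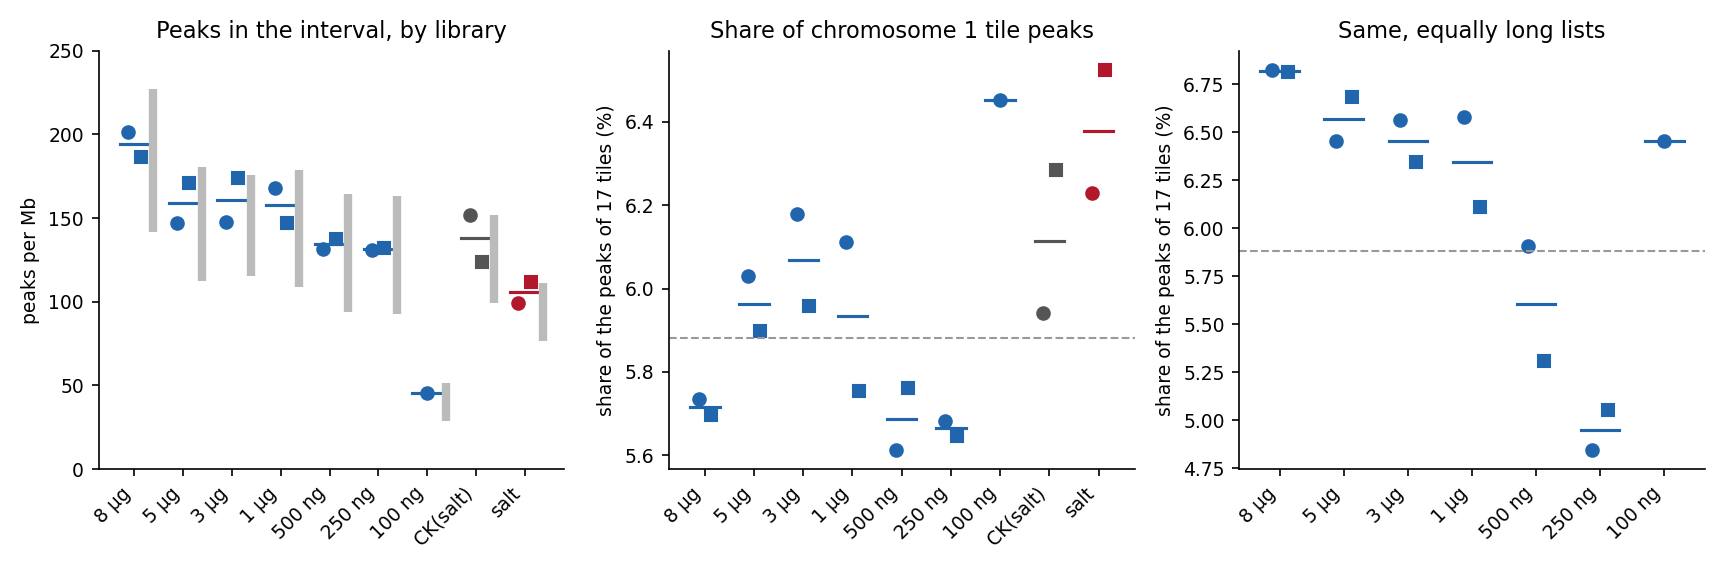
Left, peaks per Mb in the interval (y axis) by group (x axis), with circles for replicate 1, squares for replicate 2, lines for group means and grey bars from the lowest to the highest of the 16 other tiles (averaged over the group's libraries). Middle and right, the interval's share of the peaks of all 17 tiles in percent, in the lists as deposited and in the input lists limited to their 14845 best-scored peaks; the dashed line is an equal share, 5.88%. In the right panel the 4 libraries of 500 and 250 ng lie below the other 9.

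The place of the interval among its neighbours depended on which peaks were counted. With the lists as deposited it ranked between 3.5 (100 ng) and 13 of 17 tiles in peak density (1 being the densest), with a median rank of 10 over the 17 libraries. Its share of the peaks in all tiles had means of 5.72 ± 0.0280%, 5.96 ± 0.0941%, 6.07 ± 0.156% and 5.93 ± 0.253% for 8, 5, 3 and 1 µg, and of 5.69 ± 0.105% and 5.67 ± 0.0248% for 500 and 250 ng (SD, n = 2 per amount). The 100 ng library had 6.45%. No relation of this share to input was detected in these lists (r = -0.108, permutation p = 0.728, rho = 0.0831, p = 0.788). At constant background coverage the sign turned and the relation passed (r = 0.588, permutation p = 0.0352, adjusted p = 0.0440). This setting was chosen after seeing the data. The share itself went with background coverage by r = -0.589 but by rho = 0.0220. Without the 100 ng library, which had the lowest coverage, the share gave r = 0.398 against input (permutation p = 0.195).

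In input lists of equal length the share went with the amount. When each input list was limited to its 14845 best-scored peaks, the number in the shortest list, the 8 µg libraries had 6.83 and 6.81% of the tile peaks in the interval, the 5 µg libraries 6.45 and 6.69% and the 3 µg libraries 6.56 and 6.35%. The 1 µg libraries had 6.58 and 6.11%, those of 500 ng 5.91 and 5.31% and those of 250 ng 4.84 and 5.06%. The 100 ng library, at 6.45%, did not follow this order. The relation passed the test (r = 0.694, permutation p = 0.00852, adjusted p = 0.0142; rho = 0.784). It gave r = 0.906 without the 100 ng library (permutation p = 3.0e-05), 0.896 or 0.897 without that and 1 of the 8 µg libraries, and 0.836 at constant background coverage (permutation p = 0.00038). Within runs of library codes it was 0.653 (exact permutation p = 0.0972), so it did not pass there. Keeping instead all peaks with a −log10 q of at least 5, which leaves lists of unequal length, gave no detectable relation (r = 0.0504, permutation p = 0.869).

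Of the 17 tiles the interval had the largest such difference. Its mean share of the best-scored peaks was 6.61 ± 0.195% over the 6 libraries of 3 to 8 µg and 5.28 ± 0.459% over the 4 of 250 and 500 ng (SD), a difference of 1.34 percentage points. The other tiles ranged from -0.756 to 0.812 points. The libraries of the high and low amounts did not overlap in the interval and in 2 other tiles, and overlapped in 14. The difference between tiles was not tested.

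The low amounts missed part of the 8 µg regions of the interval. Both 8 µg lists had a peak at 408 regions. Replicates 1 and 2 of 5 µg returned 76.5 and 89.95% of these, those of 3 µg 76.5 and 88.5% and those of 1 µg 85.05 and 69.6%. The 500 ng libraries returned 64.7 and 60.05%, the 250 ng libraries 56.1 and 60.3%, and the 100 ng library 26.2%. Recovery rose with the amount of DNA (r = 0.874 with a permutation p of 0.00025, adjusted 0.000625, and rho = 0.889 with 0.00056), but missed the threshold without the replicate 2 libraries (r = 0.806, adjusted exact permutation p = 0.0729) and within runs of library codes (r = 0.901, exact permutation p = 0.0278, adjusted p = 0.139, in the design of 72 orders). At constant background coverage recovery passed (r = 0.858, adjusted permutation p = 0.00187), as it did with lists of equal length (r = 0.695, adjusted permutation p = 0.0206). When the 100 ng library and 5 µg replicate 1 or 2 were dropped, it gave 0.893 or 0.799. In every library the interval lay within the range of the other tiles, for example 52.7 to 62.3% in 250 ng replicate 1.

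At 100 ng the interval had a peak in 108 regions, and 107 of them had one in both 8 µg lists. Among the 108 were the 69 regions held by all 17 lists and 73 held by all 13 input lists. Their median width merged over 17 lists was 862.5 bp, while the median width of the 100 ng library's own peaks there was 259 bp. The lowest amount thus returned short peaks in regions that most other libraries also held and that are long when merged. These counts were not set beside the genome.

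Leaving the 100 ng library aside, peaks of the interval were longer and their folds over the library's own background lower at the low amounts. Median widths for 8, 5, 3 and 1 µg were 443 ± 8.49, 400 ± 28.3, 382 ± 5.66 and 446 ± 43.5 bp, and those for 500 and 250 ng were 478 ± 15.2 and 489 ± 10.96 bp (SD, n = 2 per amount). The 100 ng library had 259 bp. The median deposited fold was 4.85 ± 0.332, 5.30 ± 0.220, 5.32 ± 0.215 and 4.64 ± 0.304 for the amounts in µg and 4.49 ± 0.661 and 3.83 ± 0.211 for 500 and 250 ng (SD, n = 2 per amount), and 5.82 for 100 ng. Over 13 libraries neither relation to input passed the test (for width r = 0.0248 and rho = -0.283, with permutation p of 0.94 and 0.347; for fold 0.321 and 0.294, with 0.281 and 0.327). Both passed without the 100 ng library, with r = -0.692 for width (permutation p = 0.0167, adjusted p = 0.0208) and 0.751 for fold (permutation p = 0.00656, adjusted p = 0.0109). Over all 13 libraries at constant background coverage both passed too (r = -0.761 and 0.836, adjusted permutation p = 0.00483 and 0.00187). Within runs of library codes neither passed (width r = -0.765, adjusted exact permutation p = 0.208; fold r = 0.760, adjusted exact permutation p = 0.139). With 100 ng and 8 µg replicate 1 or 2 left out, the width gave -0.744 or -0.783 and the fold 0.847 or 0.751. Median widths of whole lists were close to those of the interval, such as 502.5 ± 16.3 bp at 250 ng and 394 ± 5.66 bp at 3 µg (SD, n = 2).

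In the 69 regions held by all 17 lists, which are the same places in each library, peaks were not longer at low amounts. The 8 µg libraries had median covered lengths of 812 and 790 bp, those of 5 µg 607 and 728 bp and those of 3 µg 635 and 654 bp. The 1 µg libraries had 706 and 684 bp, the 500 ng libraries 633 and 631 bp, the 250 ng libraries 589 and 670 bp and the 100 ng library 282 bp. These medians describe regions chosen for being in every list.

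Some regions were tied to high or low amounts. In the interval, 20 of 625 regions (3.20%) had a peak in all 6 libraries of 3 to 8 µg and in none of the 4 of 250 and 500 ng, against 3.84% of the genome's regions. The reverse held for 14 regions (2.24%), against 2.47%. Both shares were thus near the background and lay within those of the other tiles (2.17 to 5.18% and 1.45 to 4.07%). Among the former, the region from 11066980 to 11067473 had the highest median percentile, 79.4, and it also had a peak in all 4 salt and CK(salt) lists. Of the latter, the region from 10964857 to 10965559 had the highest, 59.4, and had a peak in 5 lists in all. Both were chosen after their values were seen.

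In the salt libraries the interval had fewer and shorter peaks than in their controls. The interval held 248 and 280 peaks in salt replicates 1 and 2 and 380 and 310 in CK(salt) replicates 1 and 2 (264 ± 22.6 against 345 ± 49.5; SD, n = 2 each). No salt library reached a control, and the log2 peak numbers differed by -0.38 in the mean (two-sided exact permutation p = 0.333, the lowest value possible with 2 against 2). Peaks covered 100.3 and 102.6 kb of the interval under salt and 190.004 and 139.4 kb in CK(salt), a log2 difference of -0.68 (exact permutation p = 0.333). The median width was 355 and 311.5 bp under salt and 446.5 and 384.5 bp in CK(salt), lower by 82.25 bp in the mean under salt (333 ± 30.8 against 415.5 ± 43.8 bp; SD, n = 2 each; exact permutation p = 0.333). The other tiles differed alike, by log2 peak numbers from -0.56 to -0.33 with 2 tiles above the interval, and the median width of whole lists was 333.5 ± 26.2 bp under salt and 414 ± 18.4 bp in CK(salt) (SD, n = 2 each).

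By replicate number, whose pairs also share a run of library codes, the log2 difference in peak number was -0.62 and -0.15, and in covered length -0.92 and -0.44. CK(salt) replicate 1 had the highest background coverage of the 4. Without it the log2 differences were -0.23 in peak number and -0.46 in covered length. Depth was lower under salt within each pair, and its part in the result was not tested. With the 4 lists limited to 32861 peaks each, which fixes the genome's total, the log2 difference was -0.02 for peak number and -0.40 for covered length. Window by window, both salt libraries had fewer peaks than both controls in 17 of the 25 windows of 100 kb, and more in 0. The whole salt lists were also shorter (32861 and 35907 peaks) than those of CK(salt) (51710 and 40592). Windows of the other tiles were not counted in this way, and all windows share the same 2 against 2 libraries. The count therefore does not set the interval apart.

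The interval's share of the chromosome's peaks was slightly higher under salt in both replicate pairs, while the groups overlapped. It held 6.23 and 6.53% of the tile peaks under salt and 5.94 and 6.29% in CK(salt), a difference of 0.264 percentage points in the means with overlapping groups (exact permutation p = 0.667). It was 0.287 and 0.240 points by replicate number, against SDs of 0.209 and 0.243 within salt and CK(salt). Among the 16 other tiles 1 had a larger difference, the third after the interval, and they ranged from -0.429 to 0.411 points. With lists of equal length the sign turned (-0.0661 points).

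The share of regions lost under salt in the interval was near the background. Of the 402 regions with a peak in any of the 4 lists, 31 (7.71%) had a peak in both CK(salt) lists and in neither salt list, and over the genome 7.79% of such regions were lost in this way. The other tiles ranged from 5.71 to 9.70%. The lost regions lay in 18 of the 25 windows, with at most 4 in one. Regions gained, with a peak in both salt lists and in neither CK(salt) list, numbered 0 in the interval (0.269% of regions were gained over the genome, and 6 other tiles had 0 as well). Leaving out 1 library loosens both calls: the lost regions then numbered 60, 64, 44 and 87 without salt replicates 1 and 2 and CK(salt) replicates 1 and 2, and the gained ones 13, 4, 4 and 1. With lists of equal length there were 12 lost (3.59%, genome 3.45%) and 2 gained (0.599%, genome 2.20%).

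The region lost with the highest score lay from 11260935 to 11261626. Its deposited fold was 8.92 and 11.2 in the CK(salt) libraries and 2.55, 10.3 and 12.4 (lowest, median, highest) in the 12 input libraries that held it, all but the 100 ng library. It covered 369 and 349 bp in CK(salt). In the weaker of its CK(salt) lists it stood at percentile 85.7, and it was the single lost region of the interval at or above percentile 75. The other lost regions were weaker.

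Next came the regions from 11952083 to 11952711 and from 12279988 to 12280636, at percentiles 51.7 and 51.5. The former had folds of 5.46 and 5.21 in CK(salt) and a peak in 11 input lists, and the latter 5.27 and 4.94 and a peak in 12. The fourth, from 11493804 to 11494088, was 285 bp long and had a peak in only 4 input lists, which were replicate 1 at 8, 5, 3 and 1 µg. The last of the 5 named lay from 11917148 to 11917576, with folds of 5.41 and 5.47 and a peak in 11 input lists.

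Over the 31 lost regions the median percentile in the weaker CK(salt) list was 19.7, compared with 66.4 over the 185 regions present in all 4 lists and 28.5 over the 62 present in both CK(salt) lists and 1 salt list. Their median merged width was 627 bp, against 843 and 704 bp. None of the 31 had a peak in all 13 input lists (their number of input lists ran from 4 to 12), and 2 had one at 100 ng. Of the 185 regions, 69 were in all 13 input lists. The lost regions were thus mostly weak ones in the controls.

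A larger share of regions was held by all 4 lists in the interval than in any other tile. Of the regions so held, a smaller share was shorter in both salt libraries. The 185 regions with a peak in all 4 lists were 46.0% of the 402, against 41.3% over the genome and 33.7 to 44.3% in the other tiles. With lists of equal length, or without salt replicate 2, 1 other tile had a higher share. In 95 of the 185 (51.4%), both salt libraries covered fewer bases than both CK(salt) libraries. This held for 61.6% of such regions over the genome and for 55.4 to 67.8% in the other tiles. All of these regions share the same 2 against 2 libraries, and the difference between tiles was not tested.

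The interval also had the lowest such share of the 17 tiles at a −log10 q of at least 5 (53.8%; other tiles from 56.8%), with lists of equal length (51.2%, from 57.2%), without salt replicate 1 (70.2%, from 72.3%), without salt replicate 2 (66.82%, from 66.83%) and without CK(salt) replicate 1 (55.4%, from 59.6%). Without CK(salt) replicate 2, 1 tile was lower (82.0%, from 80.5%). Where the mean length had to fall by 1.5 times as well, 2 tiles were lower (18.4%, from 13.2%). The count was 153 and 143 without salt replicates 1 and 2 and 103 and 155 without CK(salt) replicates 1 and 2, since the call then asks less.

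The typical amount of shortening was not unusual. The ratio of mean covered length in salt to that in CK(salt) had a median of 0.787 over the 185 regions, 0.778 over the genome and 0.738 to 0.841 in the other tiles. Salt replicate 1 was shorter than CK(salt) replicate 1 in 166 of the 185 regions (89.7%, genome 92.1%). It was shorter than CK(salt) replicate 2 in 129 (69.7%, genome 75.02%). In both comparisons 14 other tiles had a higher share. Salt replicate 2 was shorter than CK(salt) replicate 1 in 165 regions (89.2%, genome 92.5%) and than CK(salt) replicate 2 in 140 (75.7%, genome 81.5%). In both of these all 16 other tiles had a higher share. CK(salt) replicate 2 in turn was shorter than CK(salt) replicate 1 in 145 regions. This is more than the 129 and 140 regions in which salt replicates 1 and 2 were shorter than CK(salt) replicate 2. Over the genome the share between the controls was 77.7%. This order thus held over the genome for salt replicate 1 but not for salt replicate 2.

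**Figure D4:**
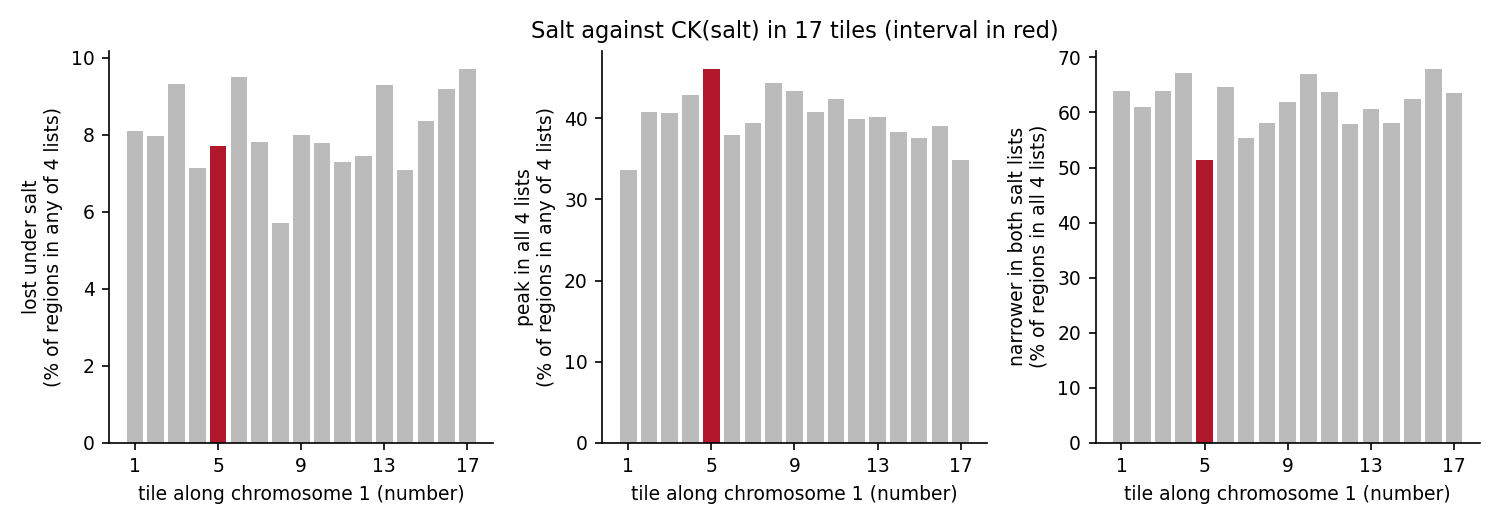
Share of regions in percent (y axes) in the 17 tiles of chromosome 1 in order along the chromosome (x axes), with the interval in red. Left, regions lost under salt; middle, regions with a peak in all 4 salt and CK(salt) lists; right, regions of the latter kind with fewer covered bases in both salt than in both CK(salt) libraries. The interval stands at 7.71%, 46.0% and 51.4%, the last 2 being the highest and the lowest of the tiles.

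The 3 regions with the lowest ratio of covered length in salt to CK(salt) lay between 11100001 and 11500000. The region from 11430305 to 11431817 covered 994 and 1118 bp in CK(salt) and 247 and 406 bp in salt, a ratio of 0.309 of the means. In the 13 input libraries it covered 188, 985 and 1308 bp (lowest, median, highest). The region from 11166607 to 11168588 covered 955 and 654 bp in CK(salt) and 217 and 284 bp in salt (ratio 0.311). The region from 11350024 to 11351041 covered 894 and 1017 bp in CK(salt) and 346 and 257 bp in salt (0.316). In all 3 the groups were far apart, and the deposited folds stayed between 3.01 and 5.40 in salt and between 4.41 and 6.81 in CK(salt).

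Few regions covered more bases under salt. In 4 of the 185 (2.16%) both salt libraries lay above both CK(salt) libraries, against 0.948% over the genome, and 2 other tiles had a higher share. The region from 12854043 to 12855364 covered 382 and 280 bp in CK(salt) and 496 and 668 bp in salt (ratio 1.76). The region from 11646635 to 11648030 covered 312 and 505 bp in CK(salt) and 666 and 534 bp in salt (1.47), and the one from 12217405 to 12218161 covered 556 and 394 bp and 672 and 659 bp (1.40). The fourth lay from 10704467 to 10706285, with 671 and 606 bp in CK(salt) and 696 and 813 bp in salt. At a −log10 q of at least 5 the number was 0, and with lists of equal length 1.

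**Figure D5:**
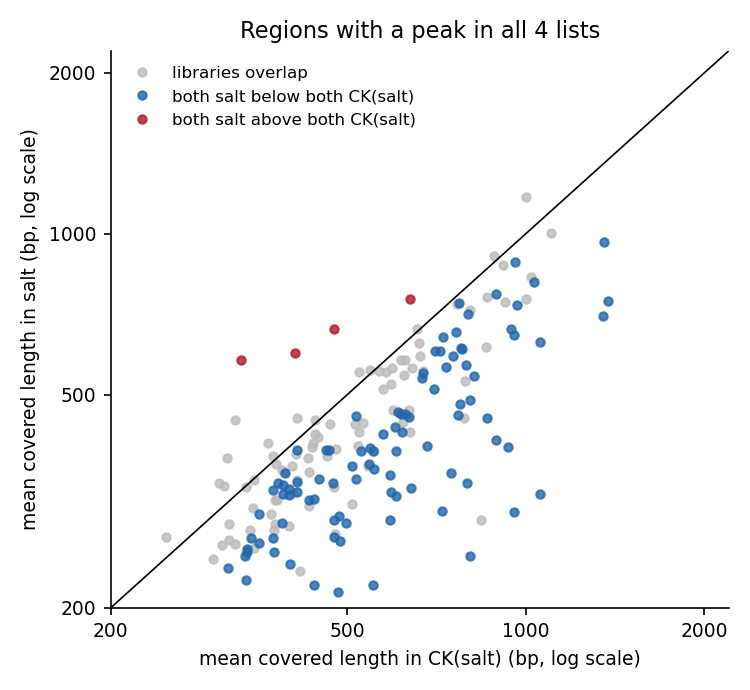
Mean covered length in the salt libraries (y axis, bp) against that in the CK(salt) libraries (x axis, bp), both on log scales, for the 185 regions with a peak in all 4 lists; the line marks equal lengths. The 95 blue points are shorter in both salt libraries than in both controls, the 4 red ones longer, and the grey ones overlap; most points lie below the line.

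Each of the 73 regions present in all 13 input lists had a peak in at least 1 of the 4 salt and CK(salt) lists. Those held by all 4 lists and by the fewest input lists lay from 12122742 to 12123154 (4 input lists), from 12944359 to 12944905 (5) and from 11058747 to 11060003 (6). None of these input lists was of 500, 250 or 100 ng. For the first they were both 8 µg lists and replicate 2 at 5 and 3 µg, with a deposited fold of 3.95 to 6.20, and the salt libraries had 2.83 and 2.91 there.

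The Jaccard index, shared bases over the bases of either list, is limited by unequal covered lengths, which were lower in the salt lists. In the interval it was 0.496 between the salt libraries and 0.600 between the CK(salt) libraries. Salt replicates 1 and 2 had an index of 0.532 and 0.516 with CK(salt) replicate 2, and 0.475 and 0.448 with CK(salt) replicate 1. Between the replicates of an input amount the index ran from 0.514 for 1 µg to 0.697 for 8 µg. Pairs of different input amounts ran from 0.106 (250 ng replicate 1 and 100 ng) to 0.705 (replicate 2 of 5 and 3 µg). Replicates of an amount were thus not always the most alike. For example, 1 µg replicate 2 had 0.639 with 500 ng replicate 2. What orders the index was not tested.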

How the data were processed

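ISRH-seq peak lists of 18 libraries were used. Per the submitters' processing notes, the tools were Bowtie2 and MACS2 version 2.1.4; the genome build, control library and treatment of duplicates are not given in the sources used here. Each deposited list holds, per peak, a fold over local background (a ratio), −log10 p and −log10 q values, and a score that the authors' files give as 10 times −log10 q without its decimals. The lists as deposited reach down to a −log10 q of about 2, and that of RNaseH to 3.08; they are per library and hold no read counts, so no interval from counts was possible, apart from the limit of 3 counts for the RNaseH library.

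Peaks of 17 libraries were merged at 1 bp overlap, and midpoints placed peaks and regions in the interval or in the 16 other tiles. Background coverage was solved from fold and p, taken as a Poisson probability, for each peak. Input relations used permutation tests with 100000 resamples (exact where few orders exist) and Benjamini-Hochberg adjustment over 5 relations at a threshold of 0.05; salt comparisons used exact permutation tests, and counts of regions had no test. The steps were tested on simulated data. Python 3.11.15, numpy 2.4.6, scipy 1.17.1, pandas 2.3.3 and matplotlib 3.10.9 were used.

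The named regions are the 5 in all 17 lists with the highest median percentile of score, the 5 lost with the highest lower percentile in the 2 CK(salt) lists, the 5 widest, the 3 in all 4 salt and CK(salt) lists with the fewest input lists, the 3 that shrank and the 3 that grew most, the 3 longest gaps and the fullest and emptiest windows; any others were chosen after their values were seen. The interval, its regions and these lists were chosen with earlier results of these data known. Replicate numbers were not taken as pairs in the main tests. Of 15 correlations between the deviations of same-numbered input libraries over the 25 windows, 6 were over 0.1 (range -0.256 to 0.382). That between salt and CK(salt) was -0.0390. A single correlation cannot show that the salt and CK(salt) libraries were unpaired, and those of the same number share a run of library codes. Some same-numbered input libraries, such as replicate 1 of 5 and 3 µg, share a run too. The reference annotation at hand is of another assembly, so no gene or sequence was joined to the peaks.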

Additional observations from a re-analysis of the deposited data

How the results depend on the processing

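The salt differences in peak number, covered length and median width kept their direction under all 8 alternatives each. Among these, taking the replicate number as a block cannot change a difference. With lists of equal length the log2 peak number differed by only -0.0229 (exact permutation p = 0.667). No p could pass in 2 against 2 libraries. The salt difference in share was -0.0661 points with lists of equal length and 0.0920 to 0.435 with 1 library left out. Gained and lost regions numbered 2 and 12 with lists of equal length, 12 and 55 at 50% reciprocal overlap, and 1 to 13 and 44 to 87 with 1 library left out. The share lost stayed near that of the genome with lists of equal length and with 1 library left out. At 50% reciprocal overlap no share over the genome was set beside the counts. Regions narrower under salt numbered 34 at a difference of at least 1.5 times and 103 to 155 with 1 library left out. The density rank of 10 stayed between 10 and 11.

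Peak number against input (r = 0.752) lost its call at constant background coverage (r = 0.248) and within runs of library codes (0.861). Recovery lost it within those runs (0.901), and gave 0.806 without replicate 2 and 0.960 without replicate 1. The fold passed with lists of equal length (0.857), without the 100 ng library (0.751) and at constant background coverage (0.836), but not within runs (0.760), with 0.0133 to 0.167 when replicates 1 or 2 were left out. The width turned to -0.127 at a −log10 q of at least 5, -0.692 without the 100 ng library, -0.0423 with narrower limits of the interval, -0.761 at constant background coverage, -0.0494 without the 8 µg libraries and -0.765 within runs, passing without 100 ng and at constant background coverage; it was 0.267 to 0.280 without replicate 2 or 1. The share turned to 0.0504, 0.398, 0.588, 0.0776 and 0.477 at that q, without 100 ng, at constant background coverage, without 8 µg and within runs, passing only at constant background coverage (adjusted permutation p = 0.0440), and was -0.442 and -0.210 without replicate 1 or 2. With lists of equal length it gave 0.694 in all libraries, 0.653 within runs, 0.906 without 100 ng, 0.836 at constant background coverage, and 0.896 and 0.897 without 100 ng and 8 µg replicate 1 or 2. Without 100 ng and 8 µg replicate 1 or 2 the lists as deposited gave 0.514 and 0.550 for share, -0.744 and -0.783 for width and 0.847 and 0.751 for fold; recovery without 100 ng and 5 µg replicate 1 or 2 gave 0.893 and 0.799. The cause was not tested for any of these.

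With the replicate number as a block (replicate block, without the 100 ng library), r was 0.416 for share, -0.722 for width and 0.754 for fold, against 0.398, -0.692 and 0.751 without the block in the same libraries. Peak number and recovery kept their calls, and the salt comparisons had p = 0.5 by exact sign-flip permutation. Constant background coverage for the share, the runs of library codes, the settings without 8 µg or without pairs of libraries, and the equal lists combined with another setting were chosen after seeing the data. Depth is known only as background coverage, and the 100 ng list, at 0.881, sets the limit for what that amount can show.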
